A study of Mus musculus with 4 samples.

Results

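The 9 myelin genes Mbp, Mobp, Mog, Mag, Cldn11, Ermn, Cnp, Mal and Opalin were followed through nuclei of the mouse hippocampus. They were taken by name from the 20211 genes counted in all 4 libraries, with earlier results of these data known. Their levels are given in oligodendrocyte nuclei, along the oligodendrocyte lineage, and in neuron nuclei, where a low signal of the same genes was also counted.

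Each library was built from nuclear RNA with a 10x Genomics kit, with 1 library per genotype. The labels name Wild type, Total/global MAGL-KO, Astrocyte specific MAGL-KO and Neuron specific MAGL-KO, where MAGL is monoacylglycerol lipase, which degrades the endocannabinoid 2-arachidonoylglycerol. The sources used here do not give the age of the mice, the number of animals per library, the deleted part of Mgll or the driver of the cell-type knockouts. Each library with a knockout label was compared with wild type. Runs of 4 values below stand in the order wild type, total-KO-labelled, astrocyte-KO-labelled and neuron-KO-labelled, and runs of 3 ratios to wild type in the order of the last 3.

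The libraries held 9369, 31243, 10731 and 8945 barcodes, with median UMIs per barcode between 5456 and 8904, and 51319 nuclei were left after filtering. The total-KO-labelled library stood apart: 23.5% of its barcodes were called doublets against 1.72 to 5.68% in the others, and 17540 of its neuron nuclei were called male and 2 female, where the others held many of both sexes. It also held 711 nuclei named medium spiny neurons, against at most 28 elsewhere. Pairs of libraries shared 108 to 466 barcodes. Mgll, the targeted gene, stood in neurons at 103, 83.7, 105 and 107 CPM. This was not lower under the neuron label, and without knowing the deleted part it does not check the labels, so the libraries are named by label alone.

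Myelin is the stack of membrane that oligodendrocytes wrap around axons. Its compact part is held together by basic proteins on the inner face of the membrane, adhesion proteins sit at its surfaces, and tight junctions seal its edges. Oligodendrocytes arise from dividing precursors through a premyelinating stage, and the myelin genes are switched on in steps along this path.

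Nuclei were named oligodendrocytes from markers other than the 9 genes, such as St18, Prr5l and Ugt8a, and the 9 genes were left out of the clustering. This gave 363, 1377, 37 and 48 oligodendrocyte nuclei, at median depths of 2038, 1213, 1389 and 1678 UMIs. Values from the last pair of libraries therefore rest on few nuclei. Every oligodendrocyte nucleus held a UMI of at least 1 of the 9 genes, which together made up a median of 1.35%, 1.28%, 1.60% and 1.40% of a nucleus's UMIs. In wild-type nuclei the 10th and 90th percentiles of this share were 0.837% and 2.01%, a wider span than that of the medians. Levels below are UMIs of a gene scaled to the total UMIs of the class (CPM), with exact 95% Poisson intervals that cover counting error only. With 1 library per genotype there was no replicate and no test, and the intervals say nothing of the spread between animals. They also leave out the spread between nuclei of a library, since the UMIs of a class are pooled. Where a few nuclei hold many of the UMIs, they are too narrow even within a library. Counts were not divided by gene length, so a level is compared for the same gene and not between genes.

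Mbp, the basic protein that compacts the inner membrane faces, stood in oligodendrocytes at 5351 (5204 to 5502) CPM in wild type and 5314 (5213 to 5416) under the total label. The astrocyte- and neuron-KO-labelled libraries had 6746 (6165 to 7367) and 6765 (6253 to 7308) CPM. The first pair of libraries overlapped, and the second pair lay above both. With called doublets kept, the Mbp ratio of the astrocyte-KO-labelled library was 0.04 (-0.10 to 0.17) and no longer clear of wild type, while that of the neuron-KO-labelled library was 0.23 (0.11 to 0.35). That of the total-KO-labelled library was -0.16 (-0.21 to -0.11) with doublets kept and 0.10 (0.04 to 0.16) with a minimum of 1000 detected genes, on opposite sides of wild type. Mobp, another basic protein of compact myelin, stood at 1809.9, 1553, 2775 and 2524 CPM. Relative to wild type, Mobp had log2 values of -0.22 (-0.31 to -0.13), 0.62 (0.40 to 0.83) and 0.48 (0.28 to 0.68), below 0 in the first library and above it in the others. The first was -0.05 (-0.15 to 0.05) with a minimum of 1000 detected genes.

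Mog and Mag, adhesion proteins of the outermost and the innermost myelin layer, varied less. Mog was counted at 1255, 1302, 1496 and 1351 CPM, and each interval of its ratios to wild type included 0. Mag was counted at 1315, 1407, 1482 and 1424 CPM, and its total-KO-labelled ratio of 0.10 (0.00073 to 0.20) turned to -0.06 (-0.16 to 0.04) with doublets kept and to -0.01 (-0.11 to 0.09) with the members used for clustering. Cldn11, the claudin of the tight junctions in myelin, stood at 888, 861, 1183 and 963 CPM, and its astrocyte-KO-labelled ratio was 0.41 (0.08 to 0.73), but 0.16 (-0.17 to 0.48) with doublets kept and 0.31 (-0.03 to 0.63) with each library clustered alone. Mal, a membrane protein of lipid-rich domains, was counted at 1968, 1912, 2040.1 and 1634 CPM, and its neuron-KO-labelled ratio was -0.27 (-0.51 to -0.03), but 0.19 (-0.18 to 0.54) in male nuclei only. Opalin, a membrane glycoprotein of oligodendrocytes, stood at 649, 645, 816 and 712 CPM. Its ratios had intervals across 0, but were 0.77 (0.25 to 1.27) under the astrocyte label in male nuclei only and 0.29 (0.12 to 0.46) under the total label with a minimum of 1000 genes.

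Ermn and Cnp rested on the fewest UMIs. Ermn, which encodes a protein of the cytoskeleton in mature oligodendrocytes, stood at 358 (320.3 to 398), 331 (306 to 357), 258 (156 to 404) and 178 (104 to 285) CPM. The last value came from 17 UMIs, and its interval lay below those of wild type and the total label, with a ratio to wild type of -1.01 (-1.80 to -0.31) that was -1.20 (-2.85 to 0.06) in male nuclei only. The astrocyte-KO-labelled ratio was -0.76 (-1.51 to -0.09) with doublets kept. It was -1.60 (-3.06 to -0.46) with a minimum of 1000 genes and -1.59 (-3.49 to -0.20) in male nuclei only, from 6 and 4 UMIs. In the other alternatives its interval included 0. Cnp, an enzyme of the cytoplasmic channels of myelin, stood at 428, 379.5, 503 and 272 CPM. Its neuron-KO-labelled ratio of -0.65 (-1.28 to -0.08) came from 26 UMIs, and was -0.53 (-1.51 to 0.31) in male nuclei only and -0.50 (-1.18 to 0.11) with a minimum of 1000 genes. Over 6 alternative settings the interval of a ratio moved onto or off 0, or across it, at least once for 8 of the 9 genes under the total label, 4 under the astrocyte label and 3 under the neuron label. Mog was in none of these counts. Mbp, Mal and Opalin lay below wild type under the total label with doublets kept and above it with a minimum of 1000 genes.

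**Figure D1:**
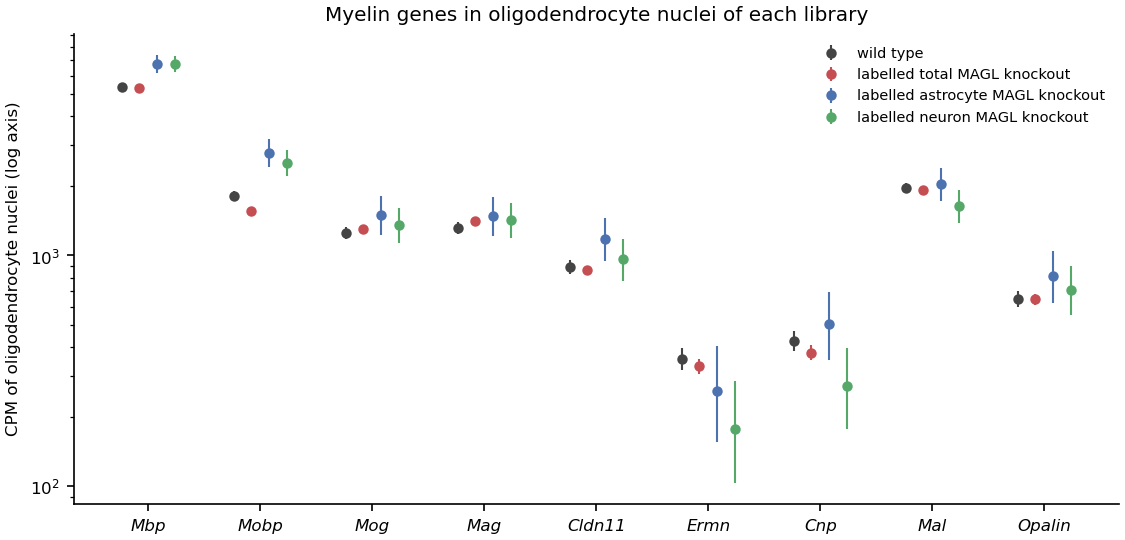
CPM of the 9 genes in oligodendrocyte nuclei (log axis), 1 point per library, with exact 95% Poisson intervals as bars. Mbp was higher in the astrocyte- and neuron-KO-labelled libraries (6746 and 6765 CPM) than in wild type (5351 CPM), though not clear of it in the first with called doublets kept. Ermn was lowest in the neuron-KO-labelled library (178 CPM), but in the astrocyte-KO-labelled library with a minimum of 1000 detected genes or in male nuclei only.

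None of the 9 genes lay 2-fold above or below wild type in oligodendrocytes, with a pseudocount of 1 count in the ratio. Of the 4937 genes with at least 100 UMIs in the class, 0.365% lay at least 2-fold higher and 2.65% lower under the total label. The shares were 4.56% and 15.5% under the astrocyte label and 3.22% and 12.8% under the neuron label, where nuclei were few. Ermn under the neuron label came nearest, at a log2 ratio of -0.9987 with the pseudocount, and passed 2-fold under 6 alternative settings. The median log2 ratios of the 9 genes were -0.04, 0.25 and 0.12, beside 0.04, -0.09 and -0.02 over all genes tested. Above wild type lay 2, 8 and 6 of the 9, counted without regard to intervals, some of which crossed 0 under each label. The share of all genes above wild type is not given. The sum of the 9 genes had ratios of -0.03 (-0.06 to -0.0027), 0.30 (0.22 to 0.39) and 0.17 (0.10 to 0.25). With called doublets kept the last pair fell to 0.03 (-0.05 to 0.11) and 0.07 (-0.01 to 0.15), and thinning nuclei to equal depth gave 0.03 (-0.09 to 0.15) for the neuron label.

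Markers of 9 other-cell genes were counted in the same nuclei. Their summed level was 893, 164, 1006 and 73.3 CPM, beside 1834 to 1888 CPM in neurons. Ttr, the transthyretin of choroid plexus, made up 738, 74.995, 911 and 20.9 CPM of it, and Pdgfra, the receptor that marks precursors, 58.0, 4.53, 0 and 0 CPM. Of the 9 markers 0, 0, 4 and 6 were at 0, and the neuronal Rbfox3 and Snap25 were at 0 under the astrocyte and the neuron label. A count of 3 UMIs equals 3.22, 1.51, 40.8 and 31.4 CPM in this class, so a 0 under the last pair of labels says little of a low level. The part of these transcripts in the ratios was not tested.

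Other myelin proteins, 20 genes from a list, gave medians of 0.11, 0.25 and 0.17. None lay past 2-fold under the total label, 1 was lower under the astrocyte label and 1 higher under the neuron label. Nfasc, the neurofascin of the junction between axon and myelin, had ratios of 0.0031 (-0.11 to 0.12), 0.93 (0.66 to 1.18) and 1.12 (0.90 to 1.34). Gpm6b, a membrane glycoprotein, had ratios of -0.05, -0.47 and 0.20.

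Of 14 genes of myelin lipids, 1 lay past 2-fold higher and 1 lower under the astrocyte label and none under the other labels, with medians of 0.02, -0.14 and -0.12. Ugt8a, which makes galactosylceramide, had ratios of 0.02, -0.03 and 0.04, each with an interval across 0. Enpp2 had ratios of 0.08, 0.03 and 0.18, and the lipid carrier Apod of 0.01, -0.44 and 0.05. Of 12 transcription factors of the lineage 10 had at least 100 UMIs, with none past 2-fold under the total label, 1 higher under the astrocyte label and 1 lower under the neuron label. St18 had ratios of 0.08, 0.16 and 0.17 and Zfp536 of -0.09, 0.32 and 0.22. Sox10, a factor that drives myelin genes, had ratios of 0.08 (-0.13 to 0.29), -0.88 (-1.85 to -0.05) and -0.38 (-1.08 to 0.25), the last pair from 12 and 22 UMIs.

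Of the 5 precursor genes with at least 100 UMIs, 4 lay past 2-fold lower than wild type under each knockout label. The shares of all genes tested were 2.65%, 15.5% and 12.8%. The 100 UMIs were summed over the 4 libraries, so a gene high in wild type could pass through wild type alone. The count is therefore a description only. Lhfpl3 stood at 522, 52.3, 27.2 and 94.3 CPM in oligodendrocytes. Ptprz1, a phosphatase of precursors, stood at 289, 37.7, 27.2 and 0 CPM, and Tnr, the matrix protein tenascin R, at 282, 28.7, 136 and 31.4 CPM. Of 7 premyelinating genes 2, 2 and 1 lay past 2-fold lower and none, none and 1 higher. Itpr2, a calcium channel of newly formed oligodendrocytes, stood at 64.4, 24.2, 0 and 0 CPM. Bcas1 had ratios of 0.06, -0.35 and 0.43, Enpp6 of 0.43, -0.49 and -0.23 and Tmem163 of 0.10, 0.50 and 1.35. The wild-type oligodendrocyte class held more Lhfpl3, Ptprz1 and Tnr RNA than the others, and the part of precursor RNA in the myelin gene ratios was not tested.

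Along the lineage Mbp stood in newly formed oligodendrocytes at the mature level or above it, and mature nuclei held 0.932 to 2.29 times as much Mag, Cldn11 and Cnp. Mobp, Mog, Opalin, Ermn and Mal were further below their mature levels in every library in which a ratio could be given, with Mobp in wild type nearest to the others. This is a description, since the stages were named from genes that go with the members. There were 27, 92, 9 and 17 newly formed and 293, 663, 30 and 17 precursor nuclei. In precursors Mbp stood at 49.3, 69.9, 141 and 45.8 CPM, the last from 2 UMIs, and Cnp at 12.8 to 23.8 CPM. Ermn was at 0.679 to 22.9 CPM, and each of the other 6 genes was at or below 12.8 CPM in every library.

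Mbp stood in newly formed nuclei at 6747, 5555, 7989 and 6787 CPM. Its log2 ratio of newly formed to mature nuclei was 0.33 (0.23 to 0.43) in wild type and 0.06 (-0.01 to 0.14), 0.24 (0.04 to 0.45) and 0.0046 (-0.16 to 0.17) in the others, so no library had less Mbp per UMI at the earlier stage beyond counting error. Mag had 1017, 666, 1148 and 1086 CPM in newly formed nuclei, Cldn11 631, 463, 831 and 713 CPM and Cnp 278, 257, 219.9 and 292 CPM. Mature nuclei held 1.29, 2.11, 1.29 and 1.31 times as much Mag, 1.41, 1.86, 1.42 and 1.35 times as much Cldn11 and 1.54, 1.48, 2.29 and 0.932 times as much Cnp.

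The other 5 genes were lower in newly formed than in mature nuclei in every library. Mobp was 2.57-, 3.798-, 7.10- and 5.14-fold higher in mature nuclei, and Mog 8.81-, 6.92-, 8.75- and 5.03-fold. Opalin was 7.97-, 19.8- and 6.10-fold higher in wild type and under the total and neuron labels, and at least 11.1-fold under the astrocyte label, where newly formed nuclei held none of its UMIs. Ermn had 3, 1, 0 and 3 UMIs in newly formed nuclei. Mal had 0, 3, 0 and 0 UMIs there, beside 1634 to 2040.1 CPM in mature nuclei. Against a floor of 3 UMIs per library, Mal was at least 96.7-fold higher in mature nuclei in wild type, and at least 27.8- and 46.6-fold under the astrocyte and neuron labels.

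**Figure D2:**
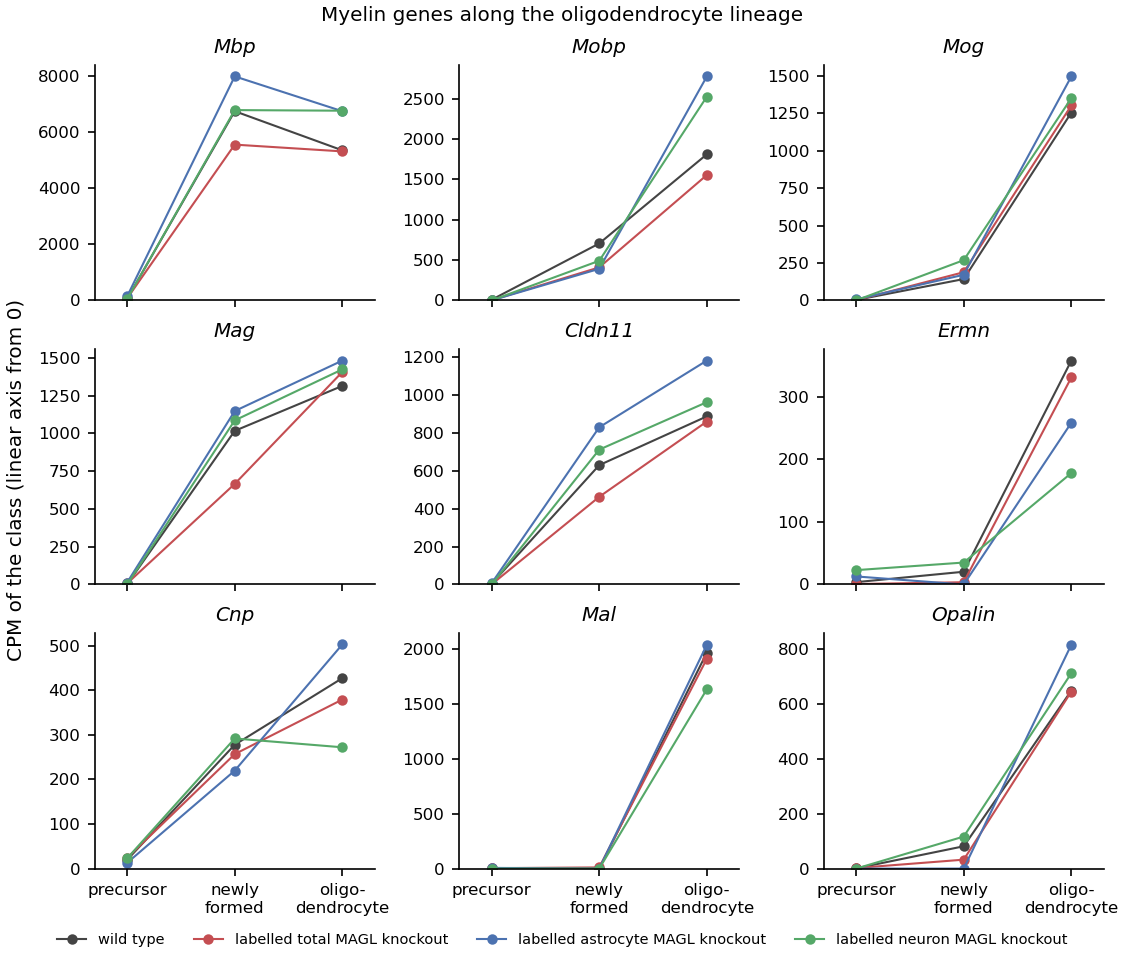
CPM of each gene in precursors, newly formed oligodendrocytes and oligodendrocytes, 1 line per library. Mbp was at 5555 to 7989 CPM in newly formed nuclei, while Mal was at 0 to 10.9 CPM there and at 1634 to 2040.1 CPM in oligodendrocytes.

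The bases upstream of the genes were set beside this order. RefSeq's table for GRCm38.p6 held 8 of the 9 genes, and 250 bases before the start site were searched on both strands for ACAAAG and ACAATG, core letters bound by SOX factors such as Sox10. At least 1 match was found in 6 of the 10 entries of these genes, where Mag has 3 entries and each other gene 1, and in 25.2% of all 32851 promoter entries. A match describes letters and not a bound site. Shown 5′ to 3′ along the gene's strand, with matches in capitals, are 4 genes of the second group and Cldn11, of the first. They are chr9:120149492-120149706 (plus strand) for Mobp, chr2:58052865-58053114 (minus) for Ermn, chr2:127656696-127656945 (minus) for Mal, chr19:41077114-41077363 (minus) for Opalin and chr3:31149670-31149919 (plus) for Cldn11. For Mobp the last 35 bases are left out, since GENCODE M21 starts the gene there.
Mobp: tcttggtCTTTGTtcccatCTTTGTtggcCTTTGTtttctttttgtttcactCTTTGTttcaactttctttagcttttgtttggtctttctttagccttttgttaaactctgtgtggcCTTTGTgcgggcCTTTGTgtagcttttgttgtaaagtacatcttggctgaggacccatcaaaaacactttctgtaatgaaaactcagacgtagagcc
Ermn: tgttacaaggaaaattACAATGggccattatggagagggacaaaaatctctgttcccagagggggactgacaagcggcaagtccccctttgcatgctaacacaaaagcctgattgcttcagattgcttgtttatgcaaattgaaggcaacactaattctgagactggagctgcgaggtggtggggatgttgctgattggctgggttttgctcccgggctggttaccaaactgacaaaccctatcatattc
Mal: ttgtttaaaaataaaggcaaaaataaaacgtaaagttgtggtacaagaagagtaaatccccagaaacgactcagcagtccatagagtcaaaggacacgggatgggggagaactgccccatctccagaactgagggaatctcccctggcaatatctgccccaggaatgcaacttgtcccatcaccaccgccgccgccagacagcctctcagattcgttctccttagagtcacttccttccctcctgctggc
Opalin: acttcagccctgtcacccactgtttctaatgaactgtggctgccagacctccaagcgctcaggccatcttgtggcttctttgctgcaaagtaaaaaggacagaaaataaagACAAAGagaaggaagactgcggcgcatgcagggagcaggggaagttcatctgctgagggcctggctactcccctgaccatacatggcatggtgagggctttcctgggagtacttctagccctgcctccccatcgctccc
Cldn11: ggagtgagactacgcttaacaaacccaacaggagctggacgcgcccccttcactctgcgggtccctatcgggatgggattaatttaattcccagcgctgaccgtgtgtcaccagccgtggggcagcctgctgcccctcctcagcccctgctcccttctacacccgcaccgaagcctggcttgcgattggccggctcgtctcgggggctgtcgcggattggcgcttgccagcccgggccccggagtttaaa

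Mobp held 6 matches, all ACAAAG on the opposite strand, between 243 and 115 bases before the start site. Ermn held 1 ACAATG, Opalin and Cnp 1 ACAAAG each, and Mag 1 match, the same site in 2 overlapping entries of its 3. Mog, Mal and Cldn11 held none in this window, which says only that these letters are not there. GC content was 40.8% for Mobp, 46.8% for Mog, 47.2% for Ermn, 50.0% for Mal and 54.4% for Opalin. It was 57.2% for Cnp, 63.6% for Cldn11 and 56.4%, 66.0% and 61.2% for the entries of Mag.

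In GENCODE M21 (GRCm38, named mm10 in the submitters' processing notes) all 9 are protein-coding genes. Mobp lies on chromosome 9 (120149707 to 120181484), Mog on 17 (37010743 to 37023398), Mag on 7 (30899176 to 30914873) and Cldn11 on 3 (31149920 to 31164324). Ermn (58045113 to 58052864) and Mal (127633226 to 127656695) lie on chromosome 2, Cnp on 11 (100574904 to 100591729), Opalin on 19 (41061710 to 41077113) and Mbp on 18. As background, the Mbp locus also makes longer golli transcripts from an upstream start, known in some neurons, and the deposited counts per gene do not separate transcripts. Cnp overlaps Dnajc7 over 8912 bases on the opposite strand. Mobp overlaps Gm38642 over 2447 bases on the same strand. On the opposite strand Ermn overlaps Galnt5 over 748 bases, Mbp Rpl21-ps8 over 483 and Mog Gm22388 over 248. The sources used here do not say whether counting used strand. Dnajc7 stood at 92.7 to 97.6 CPM in neurons and at 162, 138, 245 and 105 CPM in oligodendrocytes. Whether Cnp counts in either class include Dnajc7 reads was not tested, nor were the other overlaps.

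In neurons Mbp and Cnp stood apart from the other 7 genes, a split made after these values were seen. There were 7784, 20683, 9652 and 8164 neuron nuclei. Mbp stood in them at 56.7, 60.1, 51.4 and 56.4 CPM and Cnp at 7.79, 4.98, 7.82 and 6.27 CPM. Each of the other 7 lay between 0.341 and 2.02 CPM. As a percent of the oligodendrocyte level of the same library, Mbp was at 1.06%, 1.13%, 0.762% and 0.834% and Cnp at 1.82%, 1.31%, 1.55% and 2.303%. The 7 others together were at 0.0933%, 0.106%, 0.0410% and 0.0667%, with Ermn highest among them at 0.226%, 0.224%, 0.195% and 0.369%. Cdh19, Prr5l, Sh3tc2 and 1700047M11Rik, oligodendrocyte genes chosen as weak in wild-type neurons, were at 0.0195 to 0.116% over the 4 libraries.

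**Figure D3:**
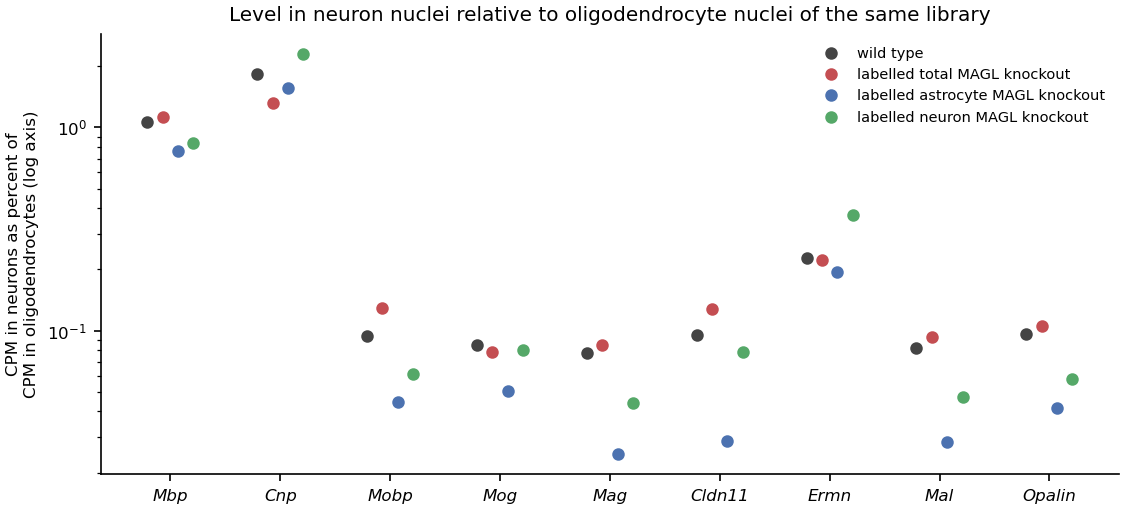
CPM in neuron nuclei as a percent of CPM in oligodendrocyte nuclei of the same library (log axis), 1 point per gene and library. Mbp (0.762 to 1.13%) and Cnp (1.31 to 2.303%) lay above the other 7 genes.

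The make-up of the signal differed between oligodendrocytes and the sum of all neurons. Mbp gave 38.2% (37.3 to 39.0) of the UMIs of the 9 genes in wild-type oligodendrocytes and 78.5% (77.5 to 79.6) in wild-type neurons. In the other libraries it gave 38.8%, 39.0% and 42.8% in oligodendrocytes and 81.6%, 81.1% and 82.3% in neurons, without overlap of the intervals in any library. By type, the share of Mbp was 87.3%, 87.4%, 86.6% and 85.9% in granule neurons and 44.2% (39.5 to 49.0), 47.1% (42.7 to 51.6), 35.7% (29.0 to 42.9) and 49.0% (43.6 to 54.4) in inhibitory neurons, where it overlapped the share in oligodendrocytes under the astrocyte and neuron labels. In wild type the share of Cnp was 3.05% in oligodendrocytes and 10.8% in neurons, and that of Mal 14.0% and 2.25%.

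Over all barcodes, oligodendrocytes included, Mbp stood at 139, 168, 67.1 and 78.2 CPM. The 7 others stood at 122, 160.0, 20.2 and 25.2 CPM over all barcodes and at 7.69, 8.53, 4.12 and 5.86 CPM in neurons. Neuron nuclei held 36.3%, 22.8%, 67.6% and 68.7% of all Mbp UMIs and 5.61%, 3.39%, 18.1% and 22.1% of those of the 7 others. All barcodes included called doublets and filtered barcodes, while the neuron nuclei did not. Under the total label 23.5% of barcodes were called doublets, and its neurons held 7389 Mbp UMIs, or 11458 with doublets kept. Its shares are therefore not comparable with those of the other libraries.

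Summed over the nuclei of a type, Mbp stood in the same order over 5 neuron types in every library. Dentate granule neurons had 82.9, 93.0, 87.7 and 87.6 CPM, and excitatory neurons of the subiculum or cortex 67.3, 67.5, 70.0 and 76.0 CPM. CA1 pyramidal neurons had 39.5, 56.2, 41.4 and 48.0 CPM, CA2 or CA3 neurons 30.1, 36.2, 25.6 and 31.0 CPM and inhibitory neurons 19.2, 14.1, 7.39 and 13.1 CPM. The intervals of these 5 sums did not overlap in any library. Single clusters broke the order: in wild type an inhibitory cluster of 142 nuclei stood at 40.2 CPM and a CA1 cluster at 31.2 CPM, and a subicular or cortical cluster stood at 19.3 to 26.7 CPM in the 4 libraries. The highest single clusters, at 124, 137, 123 and 139 CPM, were none of them granule neurons: in 3 libraries they were neurons of no finer type, and under the astrocyte label subicular or cortical neurons. Mbp was 3.13-fold, 4.78-fold, 7.64-fold and 4.93-fold higher in the sum of the 4 excitatory types just named than in inhibitory neurons. Mossy cells, which are not among them, had 13.5, 17.1, 31.6 and 26.9 CPM from 6, 11, 24 and 15 UMIs, and thalamic neurons were also left out. The inhibitory class in turn leaves out medium spiny neurons, with 56.1 (29.9 to 96.0) CPM in wild type and 85.7 (76.5 to 95.7) under the total label. It also leaves out 3 clusters with Gad1 and Gad2 among their markers that got no finer type. Of these, 1 had 39.5, 49.6, 52.3 and 45.3 CPM and another 56.0, 42.4, 8.28 and 14.4 CPM. The last, with 220 nuclei under the total label and few elsewhere, had 38.6 (26.5 to 54.1) CPM there. Some clusters with Gad1 and Gad2 were left unnamed and are in no class. The ratio therefore describes the named classes and not all excitatory and inhibitory neurons. For the 7 others the same ratio was 0.394, 0.808, 1.03 and 0.719, with no interval above equality, and for Cnp 0.771, 0.690, 0.790 and 1.09. In wild type the 7 others stood at 14.5 (12.2 to 17.0) CPM in inhibitory, 5.06 (4.04 to 6.26) in granule and 2.31 (1.56 to 3.29) in CA1 neurons. The inhibitory cluster named above stood at 49.7 CPM of them in wild type and at 5.79, 9.41 and 11.5 CPM in the other libraries.

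**Figure D4:**
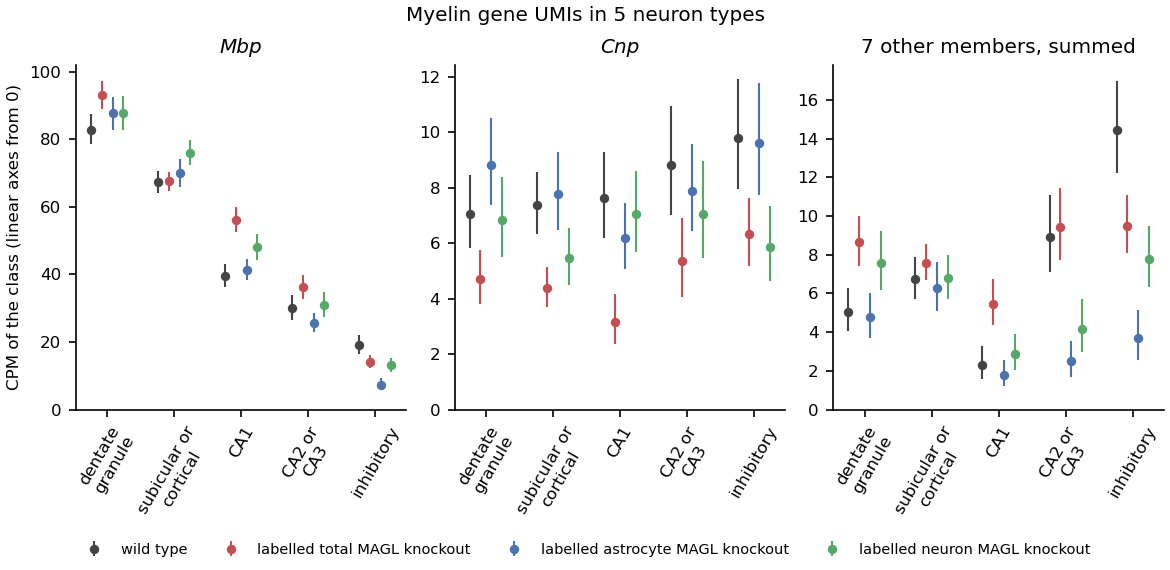
CPM of Mbp, of Cnp and of the 7 other genes summed, by neuron type, 1 point per library with exact 95% Poisson intervals as bars. Mbp fell from granule neurons (82.9 to 93.0 CPM) to inhibitory neurons (7.39 to 19.2 CPM) in each library.

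Over the 29 neuron clusters measured in all libraries, the order of Mbp levels was alike between libraries, with Spearman's rho of 0.856 to 0.930 over the pairs of libraries. The clusters were found on all libraries together, and this is a description. Within a library Pearson's r of Mbp with the 7 others, over 34, 40, 34 and 34 clusters, was -0.04, -0.24, 0.24 and -0.08.

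At equal depth, with nuclei thinned to 1000 UMIs, 8.51% (7.30 to 9.85) of wild-type granule nuclei and 1.39% (0.764 to 2.33) of inhibitory nuclei held an Mbp UMI. The other libraries gave 8.83%, 8.30% and 7.69% in granule and 1.22%, 0.5998% and 1.17% in inhibitory nuclei. Thinning left out 1 to 20 nuclei of a type and library. Not thinned, the shares were 45.4%, 34.4%, 39.0% and 45.2% and 12.1%, 6.79%, 5.22% and 9.91%, at wild-type median depths of 8056 and 9446 UMIs. For the 7 others the thinned shares were 0.571%, 0.772%, 0.289% and 0.651% in granule and 0.996%, 0.872%, 0.343% and 0.857% in inhibitory nuclei, with overlapping intervals in each library, and those of Cnp also overlapped.

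Between libraries, Mbp in neurons had log2 ratios to wild type of 0.08 (0.03 to 0.14), -0.14 (-0.20 to -0.08) and -0.01 (-0.07 to 0.05). Its astrocyte-label value was -0.08 (-0.17 to 0.02) in male nuclei only and -0.12 (-0.30 to 0.06) in thinned nuclei, where the total-label value was 0.07 (-0.09 to 0.22). The total-label value was 0.20 (0.15 to 0.25) with doublets kept. The astrocyte-label value was 0.04 (-0.03 to 0.11) without nuclei that held 3 or more Mbp UMIs, a filter on the measured count that takes more from deeper nuclei. Without those nuclei Mbp stood at 40.5, 50.7, 41.6 and 42.1 CPM. The sums over all neurons mix types whose shares of nuclei differed: CA1 neurons were 12.2% of wild-type and 20.2% of astrocyte-KO-labelled nuclei, and CA2 or CA3 neurons 6.31% and 10.4%. Within types the Mbp ratios under the astrocyte label were 0.08 (-0.03 to 0.19) in granule, 0.06 (-0.05 to 0.17) in subicular or cortical, 0.07 (-0.10 to 0.23) in CA1, -0.23 (-0.46 to 0.01) in CA2 or CA3 and -1.38 (-1.79 to -0.98) in inhibitory neurons. In the same order of types they were 0.17, 0.01, 0.51, 0.27 and -0.44 under the total label and 0.08, 0.18, 0.28, 0.05 and -0.55 under the neuron label. Summed over inhibitory neurons Mbp was lower than in wild type under each label. Of the 194 UMIs in that wild-type sum, 69 and 68 came from 2 clusters. Over the 5 inhibitory clusters measured in wild type, Mbp was lower beyond counting error in 3 and higher in 2 under the total label, lower in 3 under the astrocyte label and lower in 2 under the neuron label, with none higher under the last pair. One of them stood at 8.70 (5.78 to 12.6) CPM in wild type and at 20.3 (16.5 to 24.8) under the total label, so the direction of the sum did not hold in every cluster. The other cluster higher under the total label rested on 1 Mbp UMI in wild type and 11 under that label. Its ratio was 2.85 (0.065 to 8.28). Cnp had ratios of -0.65 (-0.81 to -0.48), 0.01 (-0.16 to 0.17) and -0.31 (-0.49 to -0.14). Under the total label none of the 9 lay past 2-fold, where 0.933% of the 17908 genes tested lay higher and 1.55% lower. With doublets kept 6 did, but the share of all genes is not given for that setting. Under the astrocyte label 3 of 9 lay lower and none higher, beside 1.08% lower and 0.385% higher of all genes. Under the neuron label 1 of 9 lay lower, beside 0.704% lower and 0.408% higher. The 3 were Mag (-1.48, -2.15 to -0.86), Cldn11 (-1.32, -2.02 to -0.65) and Mal (-1.48, -1.9997 to -0.99), and the 1 was Mal (-1.07, -1.54 to -0.62). In male nuclei only, Mal under the neuron label was -0.64 (-1.27 to -0.02) and none of the 9 was past 2-fold, and with doublets kept 3 were, again with no share of all genes given. Mag had 82 UMIs in wild-type neurons and 29 under the astrocyte label, Cldn11 68 and 27, and Mal 130 and 46. In inhibitory neurons these pairs were 22 and 1, 17 and 1, and 32 and 2. In granule neurons they were 10 and 7, 11 and 3, and 10 and 8, and in CA1 neurons 4 and 1, 0 and 4, and 6 and 5. Under the neuron label Mal had 19 UMIs in inhibitory, 9 in granule and 6 in CA1 neurons. The calls are therefore for the sum over all neurons and not for each type. The median of the 9 was 0.13, -0.67 and -0.30, beside -0.04, -0.06 and -0.02 over all genes.

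Summed over all neurons, the 7 others together had ratios of 0.15 (0.0047 to 0.30), -0.90 (-1.10 to -0.70) and -0.39 (-0.57 to -0.22). With called doublets kept the first was 1.20 (1.07 to 1.33), and in male nuclei only 0.40 (0.19 to 0.62). The last was -0.72 (-0.92 to -0.52) with doublets kept. After thinning it was 0.15 (-0.42 to 0.72), an interval that included both 0 and -0.39, so its direction was not resolved there. The second was -0.42 (-0.66 to -0.18) without the nuclei that held 3 or more of these UMIs, a filter on the counted UMIs themselves that takes more from deeper nuclei, and between -1.12 and -0.78 over the other alternatives. Types differed: in inhibitory neurons the 7 others had ratios of -0.60 (-0.94 to -0.27), -1.97 (-2.54 to -1.43) and -0.89 (-1.27 to -0.51). In CA1 neurons they had 1.24 (0.62 to 1.89), -0.35 (-1.11 to 0.42) and 0.31 (-0.42 to 1.05). The larger granule cluster had 4.71, 7.59, 4.01 and 7.74 CPM of them. The other granule cluster had 5.94, 10.3, 6.27 and 7.29 CPM. The sum over all neurons therefore does not describe each type. The astrocyte- and neuron-KO-labelled libraries both held a smaller share of oligodendrocyte nuclei than wild type (0.368% and 0.553% against 4.05%). Both also held less of these transcripts over all barcodes, as given above. The part of this in the neuron ratios was not tested.

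**Figure D5:**
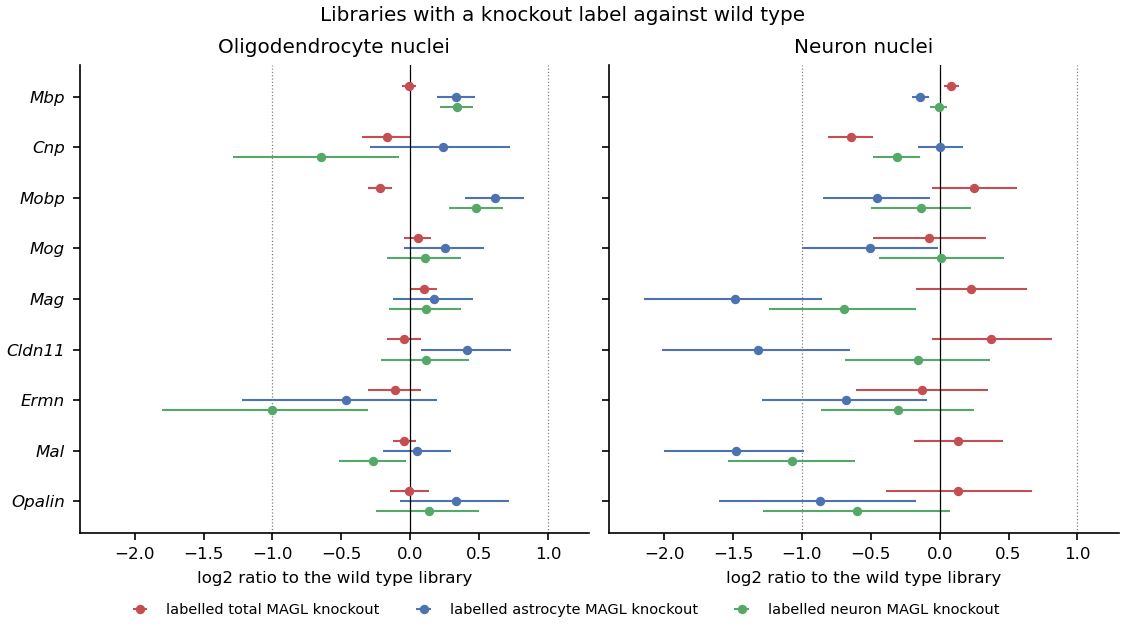
Log2 ratio of each gene to wild type in oligodendrocyte nuclei and in neuron nuclei, 1 point per library with exact 95% intervals as bars. Summed over all neurons, Mag, Cldn11 and Mal lay past 2-fold below wild type under the astrocyte label (-1.48, -1.32 and -1.48).

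A few nuclei held much of the signal of the 7 others in neurons. Nuclei with 3 or more of these UMIs numbered 24, 56, 7 and 20 and carried 44.9%, 33.0%, 22.9% and 41.1% of them. For Mbp, 384, 355, 250 and 338 such nuclei carried 33.3%, 17.8%, 22.0% and 29.4%. Median depths of the neuron nuclei were 9439.5, 5374, 7392 and 8704 UMIs, and a deeper nucleus reaches 3 UMIs at a lower level. For Cnp such nuclei numbered 8, 0, 2 and 1.

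Among oligodendrocyte nuclei thinned to 1000 UMIs, Pearson's r over the 36 pairs of genes had a median of 0.0254 in 357 wild-type nuclei and 0.0594 in 995 total-KO-labelled nuclei. Mal and Opalin were the highest pair in both, at 0.236 and 0.258. Such weak values in sparse counts are no finding.

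Outside the members, genes most like their mean over 52 pairs of cell class and library included Tmem125 (0.932), Cdc37l1 (0.918), Sgk2 (0.918), Trf (0.907), Tex52 (0.905), Cldn14 (0.903) and Sh3tc2 (0.902), with Pearson's r in parentheses. Cdc37l1 was also counted in neurons, at 98.0 to 109 CPM. Each member had r of 0.813 to 0.943 with the mean of the other members. The points share libraries, so these values carry no p.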

How the data were processed

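UMI counts per gene and nucleus, as deposited, came from Cell Ranger ARC 2.0.0 on mm10, per the submitters' processing notes; whether introns were counted is not stated there. Only the RNA part was used. Barcodes with at least 500 genes and at most 5% mitochondrial UMIs were kept, and doublets called with Scrublet were removed (0.8% expected per 1000 barcodes). Clustering used 2000 variable genes without the 9 members, sex-linked genes, mitochondrial genes and Mgll, 30 principal components, 15 neighbours and Leiden at resolution 1, with sub-clusters at 0.5 (scanpy 1.11.5, leidenalg 0.10.2). Clusters were named from 22 marker lists (a marker in at least 10% of nuclei and 2-fold higher, at least 3 markers). The rule for names was changed once with clusters in view. The members and lists were chosen with earlier results of these data known. The text names all members, the 3 most counted genes of each list, and list genes past 2-fold under all 3 knockout labels; a gene that these rules also name is not reported here. UMIs were summed per class and library. Intervals are exact at 95% (Poisson for levels, conditional binomial for ratios, Clopper-Pearson for shares; scipy 1.17.1). Past 2-fold means a ratio with a pseudocount of 1 count, among genes whose UMIs over all 4 libraries reached 100 in the class. The calculations were tested on simulated data. Alternatives covered doublets, gene minimum, clustering, sex, scaling, thinning and thresholds; Mbp alone, the 7 others and leaving out nuclei with 3 or more UMIs were added after seeing the data.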

Additional observations from a re-analysis of the deposited data

How the results depend on the processing

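No paired analysis was possible because each genotype had 1 library. No single-gene ratio past 2-fold as reported changed sign under the settings run for single genes. In neurons Mog under the total label, -0.08 as reported, was 1.27 (0.91 to 1.65) with doublets kept, and Opalin under the neuron label, -0.60 as reported, was -1.08 (-1.88 to -0.33) with doublets kept and 0.09 (-0.98 to 1.18) in male nuclei. The causes of the shifts were not tested. The 9 genes summed in oligodendrocytes had log2 ratios under the total label of -0.18, 0.072, -0.13, -0.086 and -0.080 with doublets kept, a minimum of 1000 detected genes, members among the variable genes, each library clustered alone and the mean of per-nucleus CPM. Under the astrocyte label the ratios were 0.032, 0.39, 0.21 and 0.20 with doublets kept, 1000 genes, members among the variable genes and the mean per nucleus. Under the neuron label they were 0.072, 0.26, 0.077, 0.082, 0.32, 0.028 and 0.076 for the first 4 settings, male nuclei only, thinned nuclei and the mean per nucleus. In neurons they were 0.28 and 0.094 under the total label (doublets kept, male only), -0.13 under the astrocyte label (median-of-ratios size factors) and -0.0022 under the neuron label (mean per nucleus).

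Members past the fold in oligodendrocytes became 1 under the astrocyte label with 1000 genes or male nuclei (Ermn) or at a 1.5-fold threshold (Mobp). Under the neuron label they became 1 (Ermn) with doublets kept, 1000 genes, members among the variable genes, libraries clustered alone, male nuclei or size factors, and 2 at 1.5-fold. In neurons they became 6 with doublets kept and 1 at 1.5-fold under the total label, 5 at 1.5-fold under the astrocyte label, and 3 with doublets kept, 0 in male nuclei and 2 at 1.5-fold under the neuron label. The shares of all genes past the fold are not given for these settings, so the counts show only how the calls moved.

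The neuron level of the 9 genes as a percent of the oligodendrocyte level was 0.468%, 0.483%, 0.495% and 0.464% in wild type (doublets kept, members among the variable genes, clustered alone, male only), 0.641%, 0.491% and 0.515% under the total label (doublets kept, 1000 genes, male only), 0.403%, 0.339% and 0.320% under the astrocyte label (the same settings) and 0.401% and 0.363% under the neuron label (1000 genes, male only). Neuron nuclei with any member UMI were 12.9%, 13.0%, 11.6% and 12.6% at 2000 UMIs and 42.55%, 30.16%, 34.62% and 39.69% without thinning. The few oligodendrocyte nuclei under the astrocyte and neuron labels limit every ratio there.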

Other observations

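Cldn11 was also counted outside the lineage: the 24 wild-type nuclei named fibroblast or meningeal held 6 UMIs, or 125 (45.9 to 272) CPM. In wild type the 53 nuclei named thalamic neurons held the 7 genes other than Mbp and Cnp at 141 (104 to 186) CPM, beside 22.2 (14.9 to 31.9) CPM in those of the total-KO-labelled library, where a different cluster held most of the class. Within the cluster that held most of the wild-type nuclei, 51 and 116 nuclei had 156 and 40.4 CPM, and the other cluster had 14.3 CPM under the total label. Clusters with markers of both oligodendrocytes and neurons (101 nuclei in all) were left unnamed, and in wild type their 50 nuclei held Mbp at 1363 (1271 to 1459.7) CPM.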
